A study of Homo sapiens with 4 samples.

Results

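Ribosome biogenesis and nucleolar genes were followed in A549 cells, a human lung adenocarcinoma line, in which the long noncoding RNA USP2-AS1 had been knocked down. The set was a fixed list of 58 gene symbols, chosen by function but with earlier results of these data known. It held RNA polymerase I subunits, nucleolar proteins, small nucleolar RNP (snoRNP) proteins and assembly factors of both ribosomal subunits. Of the 58 symbols, 53 were found among the 6828 genes of the deposited expression table. The other 5 (FBL, PWP2, NOC4L, NOP2 and NVL) were not among the listed genes and were not analysed here. The cells had been infected with lentiviruses carrying either a control shRNA (shctrl) or a USP2-AS1 shRNA (shUSP2-AS1), and RNA was harvested 72 h later, with 2 libraries per group. All cells were therefore infected, and the groups differed in the shRNA they expressed. The sources used here do not state which USP2-AS1 shRNA was used, so effects of a single hairpin cannot be told apart from effects of losing USP2-AS1. The comparison asks which genes of this set differ in mRNA level when USP2-AS1 is depleted.

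Ribosomes are built in the nucleolus. RNA polymerase I transcribes the ribosomal DNA into a long precursor RNA, snoRNPs modify it, and the small subunit processome folds and cleaves its 5′ part while a separate series of factors assembles the large subunit. Most of these proteins leave the particle before it is exported, so they are needed for making ribosomes and not for translating. Growing and dividing cells express these genes at high levels, and MYC is a well-known activator of many of them.

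USP2-AS1 itself had normalized read counts of 23.2 and 24.2 in shctrl cells against 2.10 and 6.16 in shUSP2-AS1 cells, so the groups did not overlap at the targeted RNA. The libraries held 10772788 to 14120472 reads on the listed genes. Every listed gene had passed the adjusted p threshold of the authors' own comparison, so the table holds genes selected on this contrast, and a p-value for a listed gene is not independent of its being listed. Size and direction are therefore read against all genes tested. Of 11 markers of A549 and other lung epithelial cells 7 were listed. KRT7, KRT8 and KRT18 were lower in shUSP2-AS1 (log2 fold changes -0.49, -0.77 and -1.05). KRT19, AKR1B10, ALDH1A1 and NQO1 were higher (0.75, 0.26, 0.41 and 0.11). Of 13 fibroblast, leukocyte and endothelial markers COL1A1 was the only 1 listed, at 261 and 293 in shctrl and 530 and 618 in shUSP2-AS1. The table holds changed genes only, so an unlisted marker is not read as absent. The part of these markers in the results was not tested.

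All 53 listed members were lower in shUSP2-AS1 than in shctrl cells at an adjusted p below 0.05 (limma), against 49.4% of all 6812 genes tested. None was higher, against 50.6% of all genes tested. In each of the 53, both shUSP2-AS1 values lay below both shctrl values, as they did in 49.3% of all genes tested. The decreases were moderate. The median log2 fold change was -0.80 over the members and 0.19 over all genes tested, and a shUSP2-AS1 mean was 32.3% to 85.1% of the shctrl mean, with a median of 57.6%. Members with a log2 fold change of -0.5 or lower numbered 49 (92.5%), against 34.3% of all genes tested. At a threshold of a 2-fold change, 9 members (17.0%) were called lower, against 13.5% of all genes tested, and 0 were called higher, against 16.1%. The listed members thus shared a direction. How many passed the 2-fold threshold depended on scaling: with RLE scaling, which lowers the median of all genes tested by 0.12, 19 members (35.8%) were called lower, against 16.8% of the genes tested under that scaling.

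Summed over the listed members, the normalized read count came to 130038 and 128391 for shctrl against 68305.5 and 71044 for shUSP2-AS1. Replicates were close for most members, with a median ratio between the higher and the lower library of 1.04 in shctrl and 1.06 in shUSP2-AS1. The widest gaps were in DDX52 between the shctrl libraries, 1.44-fold, and in BRIX1 between the shUSP2-AS1 libraries, 1.46-fold. Values are read counts divided by a size factor of each library, so they are relative and not absolute amounts. In bulk RNA fewer cells expressing a gene and less RNA per cell cannot be told apart.

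**Figure D1:**
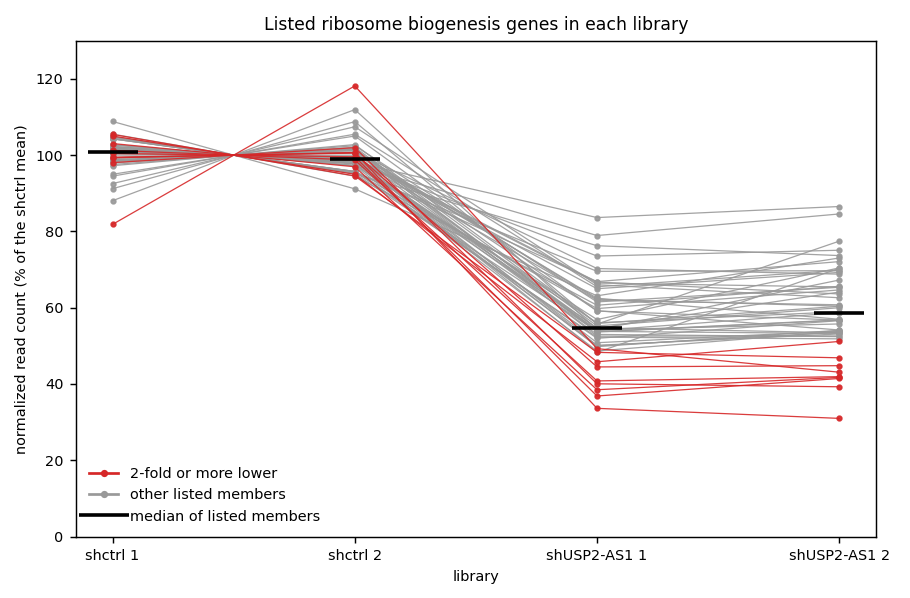
Normalized read count of the 53 listed members in each of the 4 libraries, as a percentage of the mean of the shctrl libraries of the same gene (vertical axis); each line is a gene, red lines are the 9 members called at least 2-fold lower, and black bars are medians over members. The medians of the shUSP2-AS1 libraries were 54.7% and 58.7% of the shctrl mean, and every gene lay lower in both.

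The promoters of the members often held the E-box CACGTG, a sequence that reads the same on both strands and is the core sequence recognized by MYC and its partner MAX. RefSeq promoter sequences (GRCh38.p14, 250 bases before to 50 after the gene start) were at hand for 48 of the 58 members, and 22 of them (45.8%) held the E-box. It was found in 12.9% of the 5214 listed genes with a promoter sequence and in 8.77% of the 27305 genes of the whole promoter table. The E-box lay close to the start in the members: 22 of their 25 copies (88%) began no more than 50 bases before the start, against 38.7% of 819 copies in the listed genes. To show this arrangement, the stretch from 60 bases before the start to 30 bases from it is printed for the listed member with the largest decrease among those with an E-box in this stretch, for each role with such a member. Sequences run 5′ to 3′ on the gene's own strand, and capitals mark the E-box.
DDX21 (chr10:68956587-68956676, plus strand): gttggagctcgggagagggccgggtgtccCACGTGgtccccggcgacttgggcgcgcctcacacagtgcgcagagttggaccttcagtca
NOP10 (chr15:34343107-34343196, minus strand): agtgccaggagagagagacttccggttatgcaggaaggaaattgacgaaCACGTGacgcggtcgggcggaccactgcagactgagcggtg
WDR43 (chr2:28894607-28894696, plus strand): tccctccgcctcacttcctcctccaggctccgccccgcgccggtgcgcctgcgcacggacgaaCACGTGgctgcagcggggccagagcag
RRP9 (chr3:51941875-51941964, minus strand): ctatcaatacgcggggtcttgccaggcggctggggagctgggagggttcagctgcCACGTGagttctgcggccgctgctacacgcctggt
UTP20 (chr12:101280045-101280134, plus strand): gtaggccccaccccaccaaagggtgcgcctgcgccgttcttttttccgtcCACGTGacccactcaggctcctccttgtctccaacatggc
PES1 (chr22:30591881-30591970, minus strand): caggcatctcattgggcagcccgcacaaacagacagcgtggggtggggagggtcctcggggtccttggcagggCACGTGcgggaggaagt
MRTO4 (chr1:19251745-19251834, plus strand): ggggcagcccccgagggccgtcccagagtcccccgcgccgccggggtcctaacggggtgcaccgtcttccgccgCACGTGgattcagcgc
GNL3 (chr3:52685972-52686061, plus strand): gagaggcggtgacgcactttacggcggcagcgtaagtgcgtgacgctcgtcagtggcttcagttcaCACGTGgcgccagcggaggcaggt

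The E-box began 31 bases before the start in DDX21, 11 before it in NOP10, 10 before it in UTP20 and 5 before it in RRP9. In WDR43, GNL3, PES1 and MRTO4 it began 3, 6, 13 and 14 bases after the start base. For DDX21, PES1 and GNL3 the RefSeq start lies inside the gene span of the deposited table, which begins further upstream. The E-box did not separate larger from smaller decreases among the members: the median log2 fold change was -0.82 over the 19 listed members with it and -0.79 over the 24 without it. RRP9 with an E-box fell to 40.1% of shctrl, and NOP10, also with an E-box, stayed at 85.1%. MYC mRNA was 2965 and 2928 in shctrl and 2104 and 2168 in shUSP2-AS1, for a log2 fold change of -0.46 (SE 0.05). No binding was measured, a match is not evidence of a bound site, and the part of MYC in these results was not tested.

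**Figure D2:**
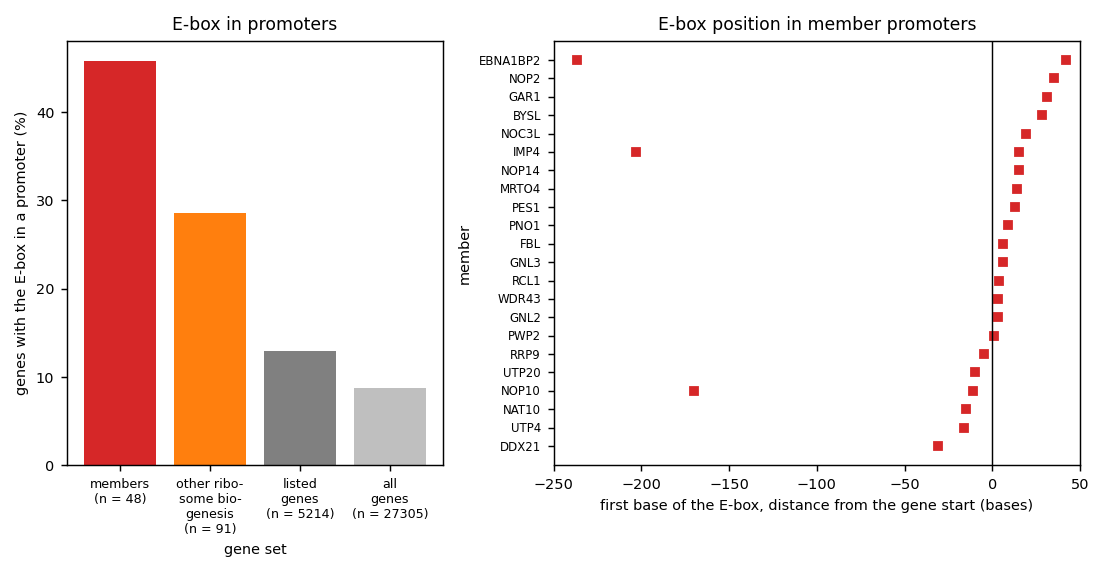
Left, the share of genes with the E-box in a RefSeq promoter sequence (bars, in percent, from 0), for the members, the other ribosome biogenesis genes, the listed genes and all genes of the promoter table. Right, the distance in bases from the gene start to the first base of each E-box (squares) for the 22 members that held it; 22 of 25 squares lie at or to the right of 50 bases before the start.

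An E2F motif (TTTGGCGC, TTTCCCGC, TTTGCCGC or TTTCGCGC, on either strand) was found in the promoters of 3 of 48 members, EBNA1BP2, PES1 and UTP15 (6.25%), names that were noted after the values were seen. The share was 6.62% of listed genes and 14.5% of the listed genes called lower. E2F1, the transcription factor whose mRNA the study followed up, was 1280 and 1241 in shctrl and 276 and 304 in shUSP2-AS1, a larger decrease (log2 fold change -2.12, SE 0.08) than that of any member.

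POLR1A and POLR1B encode the largest subunits of RNA polymerase I, the enzyme that transcribes the ribosomal DNA. Both were lower by less than 2-fold. POLR1A had 4333 and 5030 normalized reads in shctrl and 3091 and 2931 in shUSP2-AS1, for a log2 fold change of -0.63 (SE 0.06, limma adjusted p = 4.87e-08). POLR1B had 1174 and 1193 in shctrl and 832 and 814 in shUSP2-AS1, for a log2 fold change of -0.52 (SE 0.07, limma adjusted p = 1.03e-06). For both genes the lower shctrl library lay above the higher shUSP2-AS1 library, and the spread was widest between the shctrl libraries of POLR1A, 1.16-fold.

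Nucleolin (NCL) and nucleophosmin (NPM1) are the abundant phosphoproteins of the nucleolus and bind precursor rRNA and assembling particles. NCL had 17493 and 17055 normalized reads in shctrl and 7048 and 7242 in shUSP2-AS1, for a log2 fold change of -1.27 (SE 0.05, limma adjusted p = 1.38e-13). NPM1 had 17404 and 16902 in shctrl and 8542 and 9277 in shUSP2-AS1, for a log2 fold change of -0.95 (SE 0.05, limma adjusted p = 1.72e-11). NCL was thus left at 41.4% and NPM1 at 51.9% of the shctrl mean. The other members of this group had smaller log2 fold changes: -0.86 for NOLC1, a chaperone of snoRNPs, -0.86 for GRWD1, a histone-binding WD-repeat protein, and -0.71 for the RNA helicase DDX21.

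The box C/D snoRNP carries out 2′-O-methylation of rRNA, and its core is formed by NOP56, NOP58, SNU13 and the methyltransferase fibrillarin (FBL). NOP56 had 6053 and 6000 normalized reads in shctrl and 2221 and 2498 in shUSP2-AS1, for a log2 fold change of -1.36 (SE 0.06, limma adjusted p = 6.39e-13). NOP58 had 1859 and 1775 in shctrl and 909 and 973 in shUSP2-AS1, for a log2 fold change of -0.95 (SE 0.06, limma adjusted p = 3.10e-10). These paralogous scaffold proteins bind each other in the particle, and both were lower in each knockdown library.

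The box H/ACA snoRNP converts uridines of rRNA to pseudouridine, and its 3 listed members had the smallest median decrease of the 11 roles, with a log2 fold change of -0.41. GAR1 had 417 and 423 normalized reads in shctrl and 229 and 269 in shUSP2-AS1, for a log2 fold change of -0.76 (SE 0.11, limma adjusted p = 4.69e-06). NHP2 had 1758 and 1594 in shctrl and 1278 and 1234 in shUSP2-AS1, for a log2 fold change of -0.41 (SE 0.06, limma adjusted p = 1.10e-05). NOP10 had the smallest decrease of the listed members, -0.23 (SE 0.06), with 1549 and 1491 in shctrl and 1271 and 1315 in shUSP2-AS1. The catalytic subunit dyskerin (DKC1), which is not one of the 58, was at 3017 and 3030 in shctrl and 1326 and 1368 in shUSP2-AS1, for a log2 fold change of -1.17 (SE 0.06). Subunits of this particle thus covered much of the range seen over the whole set, and the difference between its subunits and other groups was not tested.

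The UTP-A complex binds the nascent precursor RNA first and links its transcription to small subunit assembly. HEATR1, its large HEAT-repeat subunit, showed the strongest decrease of the listed members. It had 2094 and 2123 normalized reads in shctrl and 709 and 653 in shUSP2-AS1, for a log2 fold change of -1.63 (SE 0.07, limma adjusted p = 3.44e-13), or 32.3% of the shctrl mean. UTP15 had 623 and 689 in shctrl and 388 and 372 in shUSP2-AS1, for a log2 fold change of -0.78 (SE 0.09, limma adjusted p = 2.60e-07). WDR75, WDR43 and UTP4, the other listed subunits, had log2 fold changes of -0.78, -0.66 and -0.60, so HEATR1 stood apart from its partners. For UTP4 the libraries within a group were farther apart than for most members, 1.19-fold in shctrl and 1.39-fold in shUSP2-AS1.

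The UTP-B complex was represented by TBL3 alone, with 1308 and 1172 normalized reads in shctrl and 752 and 814 in shUSP2-AS1, for a log2 fold change of -0.66 (SE 0.07, limma adjusted p = 2.22e-07). RRP9 is a WD-repeat protein of the U3 snoRNP, the RNP that guides the early cleavages. It had 878 and 826 in shctrl and 328 and 356 in shUSP2-AS1, for a log2 fold change of -1.32 (SE 0.09, limma adjusted p = 2.02e-10). The MPP10 complex works next to U3, and its subunits differed in size of change. IMP4 had 2152 and 1976 in shctrl and 1073 and 1168 in shUSP2-AS1, for a log2 fold change of -0.88 (SE 0.07, limma adjusted p = 1.12e-09), and MPHOSPH10 had a log2 fold change of -0.43 (SE 0.08), with libraries at 814 and 779 against 586 and 598.

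Of 12 further small subunit factors 11 were listed, with a median log2 fold change of -0.74. TSR1, a GTPase-like protein that sits on the late small subunit precursor, had 2798 and 2910 normalized reads in shctrl and 1143 and 1121 in shUSP2-AS1, for a log2 fold change of -1.33 (SE 0.06, limma adjusted p = 7.50e-13). The RNA helicase DDX52 had 391 and 565 in shctrl and 236 and 206 in shUSP2-AS1, for a log2 fold change of -1.09 (SE 0.14, limma adjusted p = 1.18e-06). The groups did not overlap for DDX52, but its shctrl libraries were far apart, and without shctrl replicate 2 its log2 fold change was -0.83. The cytidine acetyltransferase NAT10 (-0.82), the export factor RRP12 (-0.70), UTP20 (-0.86) and BYSL (-0.94) lay in the middle of the set. NOP14 had the smallest decrease of these factors, -0.29 (SE 0.07), with 992 and 940 in shctrl and 762 and 817 in shUSP2-AS1.

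PES1, BOP1 and WDR12 form the PeBoW complex, which is required for processing of the large subunit rRNAs. Its subunits lay close together, with log2 fold changes of -0.93, -0.80 and -0.80. PES1 had 3177 and 3092 normalized reads in shctrl and 1593 and 1690 in shUSP2-AS1 (SE 0.06, limma adjusted p = 6.20e-11). BOP1 had 4244 and 4091 in shctrl and 2336 and 2456 in shUSP2-AS1 (SE 0.05, limma adjusted p = 2.36e-10).

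Of 15 early assembly factors of the large subunit 14 were listed, with log2 fold changes from -1.16 to -0.52. NOC2L, a nucleolar factor that also inhibits histone acetyltransferases, had 3241 and 3276 normalized reads in shctrl and 1449 and 1460 in shUSP2-AS1, for a log2 fold change of -1.16 (SE 0.05, limma adjusted p = 2.18e-12). RRP1 had 1019 and 922 in shctrl and 445 and 497 in shUSP2-AS1, for a log2 fold change of -1.04 (SE 0.08, limma adjusted p = 3.09e-09). Its paralog RRP1B had a log2 fold change of -0.83 (SE 0.06), and NOC3L, the partner of NOC2L, one of -0.56 (SE 0.09). The helicase DDX18 (-0.52) and RRS1 (-0.58), which helps bring 5S RNA into the particle, were at the upper end. PPAN had the fewest normalized reads of the listed members, 131 and 167 in shctrl and 81.0 and 100 in shUSP2-AS1, and the widest interval, with a log2 fold change of -0.71 (SE 0.18). Its exons overlap those of PPAN-P2RY11 and P2RY11 on the same strand, and whether its entry holds all reads of the gene was not tested.

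Late nuclear maturation factors of the large subunit lay close together, from -1.07 to -0.92 on the log2 scale. WDR74 had 909 and 815 normalized reads in shctrl and 416 and 404 in shUSP2-AS1, for a log2 fold change of -1.07 (SE 0.08, limma adjusted p = 2.27e-09). The GTPase nucleostemin (GNL3), a protein abundant in stem and cancer cells, had 1829 and 1729 in shctrl and 865 and 957 in shUSP2-AS1, for a log2 fold change of -0.97 (SE 0.07, limma adjusted p = 4.95e-10). LAS1L, part of the complex that cleaves the second internal spacer, and GNL2 had log2 fold changes of -0.93 and -0.92. All of these genes ended near the 2-fold line, and WDR74 lay just past it.

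**Figure D3:**
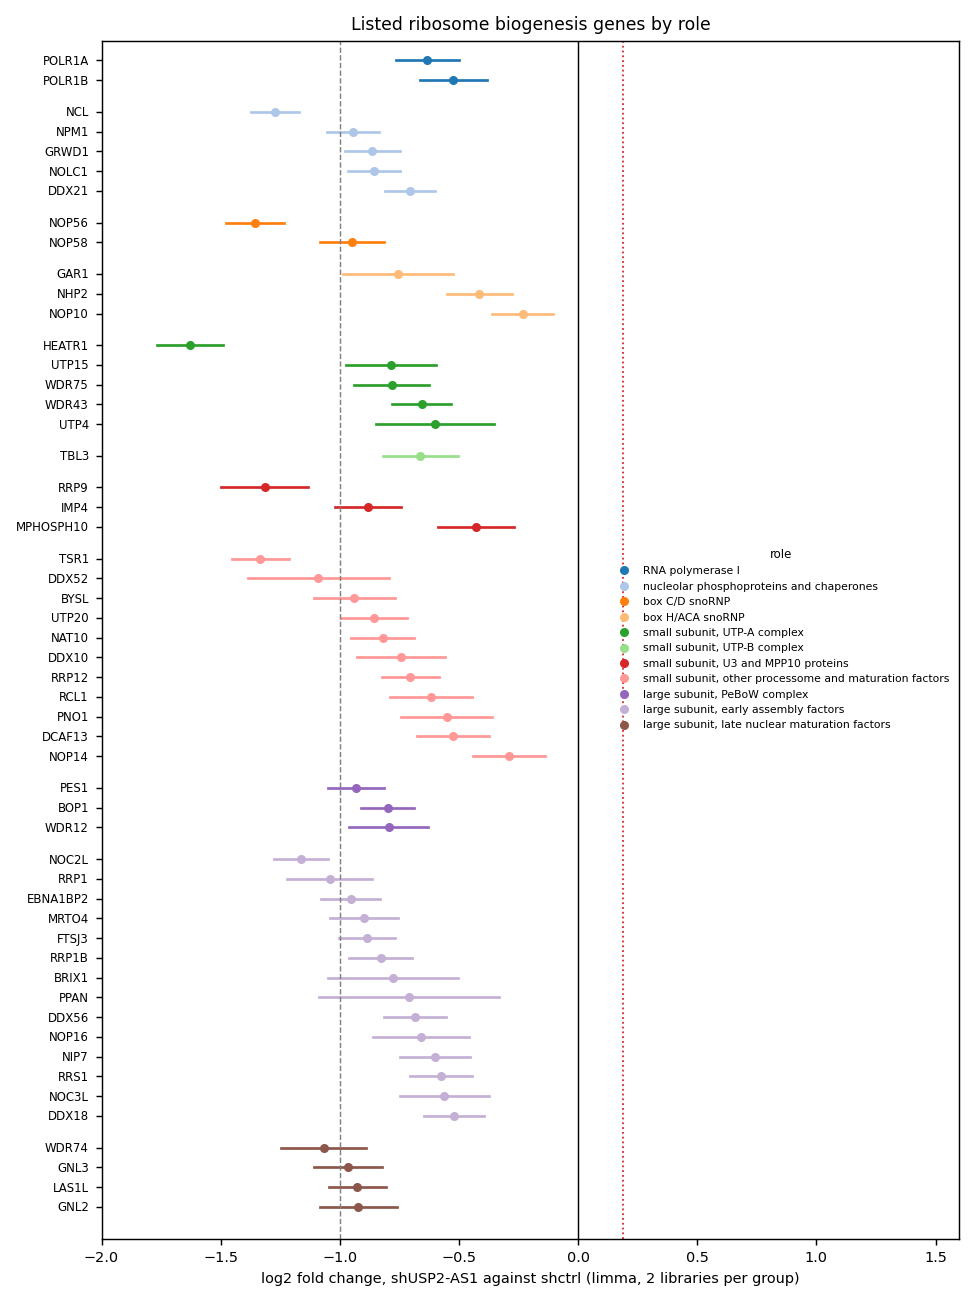
Log2 fold change in shUSP2-AS1 against shctrl cells (horizontal axis) of the 53 listed members, ordered by role; points are limma estimates from 2 libraries per group and bars are 95% confidence intervals. The dashed line marks a 2-fold decrease and the dotted line the median of all genes tested, 0.19; every interval lies below 0, and HEATR1 lies farthest to the left.

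The 9 members called at least 2-fold lower came from 7 of the 11 roles. In the deposited coordinates (hg38) these were HEATR1 (chr1:236549005-236604516), NOC2L (chr1:944203-959309), NCL (chr2:231453531-231483641), RRP9 (chr3:51933429-51941904), WDR74 (chr11:62832342-62841809), TSR1 (chr17:2322396-2336657) and DDX52 (chr17:37609739-37643446) on the minus strand, and NOP56 (chr20:2652593-2658393) and RRP1 (chr21:43789513-43805293) on the plus strand. Those after HEATR1, which were NOP56, TSR1, RRP9 and NCL, lay between -1.36 and -1.27 with standard errors of 0.05 to 0.09, so their order is within the error. The 2-fold threshold fell in a dense part of the set: 3 members lay within 0.1 inside it and 8 within 0.1 outside it. Leaving out a library changed the call of RRP1, WDR74 or DDX52, depending on the library, and the other 6 were called in each case. Calls were also gained, for BYSL and GNL3 without shctrl replicate 2 and for BRIX1, GNL3 and NPM1 without shUSP2-AS1 replicate 2. The log2 fold changes of RRP1 and WDR74 were -0.97 and -0.99 without shctrl replicate 1, and that of RRP1 was -0.96 without shUSP2-AS1 replicate 1. DDX52 was at -0.83 without shctrl replicate 2 and at -0.99 without shUSP2-AS1 replicate 2.

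Exons of 29 of the 53 listed members overlap an exon of another gene in GENCODE release 44, 11 on the same strand and 23 on the opposite strand, and the use of strand in counting is not given in the sources used here. Among the called members this holds for 7 of 9, for example HEATR1 with LGALS8, NOC2L with SAMD11 and TSR1 with SRR on the opposite strand, so reads of these pairs may not be fully separated. For NCL and NOP56, which are among the 7, the overlapping genes are only snoRNA or microRNA genes. The 24 members without such an overlap were all lower as well, against 49.4% of all genes tested. RRP9 and RRP1 were the 2 of them called at least 2-fold lower, against 13.5% of all genes tested.

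Per kilobase of gene length in the deposited table, the most abundant members in shctrl cells were NPM1 at 4481 normalized reads per kilobase, NOP10 at 2998 and NCL at 2533. The lowest values were those of DDX52 at 50.2 and PPAN at 51.7, and PPAN overlaps exons of other genes on its own strand. Abundance and size of decrease were weakly related across the 53 genes (Spearman's rho -0.23, Pearson's r -0.14 on log2 levels). Genes of a library share its depth and are not independent, and no test was made.

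Several members carry snoRNA genes within their gene spans. In GENCODE release 44, 7 of the 53 listed members (13.2%) contain 25 snoRNA genes, against 2.18% of the 6702 listed genes with a GENCODE entry. The share was 5.19% of the 77 other listed ribosome biogenesis genes and 34.4% of the 32 listed cytosolic ribosomal protein genes, so it was not highest in the members. The hosts among the members are GNL3 with 6, NOP56 with 5, NOP58 with 4, NCL and WDR43 with 3 each, and TSR1 and PPAN with 2 each. Their median log2 fold change was -0.97, against -0.78 for the 46 members without a snoRNA and -0.42 for 139 other listed hosts. The libraries were made from polyadenylated RNA, so the values are those of the host mRNAs and the snoRNAs were not measured.

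Beyond the 58 genes, a list of 103 other ribosome biogenesis genes showed how far the pattern extended in the pathway. Of 77 listed, 74 (96.1%) were lower and 3 higher at an adjusted p below 0.05 (limma), beside 49.4% lower over all genes tested. The rest of the 103 were not among the listed genes and were not analysed here. Of the 77, 17 were called at least 2-fold lower (22.1%, against 13.5% of all genes tested), and the median log2 fold change was -0.73. The largest decrease was in TCOF1 (treacle), which promotes ribosomal DNA transcription with RNA polymerase I, at 3085 and 3500 in shctrl and 1027 and 1084 in shUSP2-AS1 (log2 fold change -1.64, SE 0.07). MAK16, a large subunit factor, was at 547 and 563 in shctrl and 206 and 186 in shUSP2-AS1. Next came EXOSC8, a subunit of the RNA exosome, and POLR1G, a subunit of RNA polymerase I, with log2 fold changes of -1.40 (SE 0.12) and -1.35 (SE 0.14). All 10 listed genes of the RNA polymerase I group were lower, against 49.4% of all genes tested, with a median of -0.81 and UBTF at -0.79. The 3 genes that went the other way were SBDS (0.59) and EFL1 (0.36), which act together in the cytoplasm to release a factor from the finished large subunit, and the exosome cofactor C1D (0.41); they were named after their values were seen. In SBDS the libraries were at 894 and 882 in shctrl and 1263 and 1419 in shUSP2-AS1, without overlap.

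**Figure D4:**
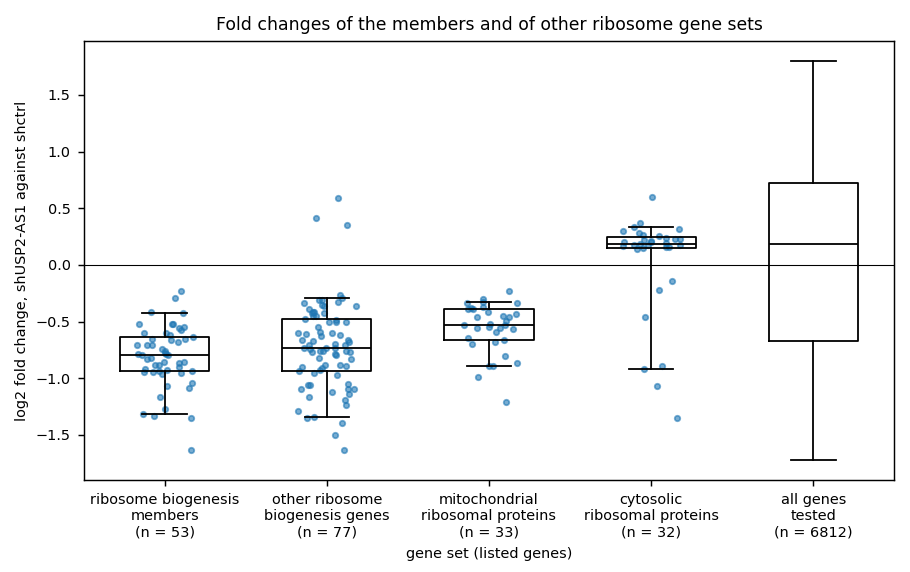
Log2 fold change in shUSP2-AS1 against shctrl cells (vertical axis) for the 53 listed members, 77 other ribosome biogenesis genes, 33 mitochondrial and 32 cytosolic ribosomal protein genes and all 6812 genes tested; points are genes, boxes span the quartiles with the median as a line, and whiskers reach the 5th and 95th percentiles. Medians were -0.80, -0.73, -0.53, 0.19 and 0.19.

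The listed genes with symbols of ribosomal proteins did not follow the assembly factors as a whole. Of 32 listed genes with RPL or RPS symbols, 25 were higher and 7 lower (21.9%, against 49.4% of all genes tested). They were picked by symbol alone, which also takes variants such as RPL39L. Genes with such symbols that were not listed have no value here, so the 32 do not stand for all ribosomal protein genes. Their median log2 fold change was 0.19, the same as that of all genes tested. Their quartiles, 0.15 and 0.24, were closer together than those of all genes tested, -0.67 and 0.72. The 2 of these 32 genes called at least 2-fold lower, named after their values were seen, were RPL39L, a variant of RPL39 (310 and 336 against 117 and 136), and RPS9 (100 and 87.9 against 41.0 and 47.5). RPS9 had far fewer normalized reads than RPL11, given below. Whether its entry holds all reads of the gene was not tested. The 33 listed mitochondrial ribosomal protein genes were all lower, against 49.4% of all genes tested, with a median of -0.53. MRPS10 was the 1 called at least 2-fold lower (3.03%, against 13.5% of all genes tested), at 641 and 651 against 287 and 271. It was again named after its values were seen. RPL11, whose protein binds MDM2 when ribosome assembly is disturbed, was at 7384 and 6860 in shctrl and 8075 and 8412 in shUSP2-AS1 (log2 fold change 0.21, SE 0.05). MDM2 was at 2243 and 2280 in shctrl and 3735 and 3561 in shUSP2-AS1 (0.69, SE 0.05), and the cell cycle inhibitor CDKN1A at 7436 and 6989 against 20618 and 20765 (1.52, SE 0.05). RPL11 thus lay near the median of all genes tested, 0.19. MDM2 and CDKN1A changed in the same cells as the ribosome biogenesis genes, and whether the changes are linked was not tested.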

How the data were processed

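RNA-seq was performed by Novogene on poly-T selected RNA of A549 cells, with 2 biological replicates of shctrl and shUSP2-AS1 infected cells according to the study. Per the labels' processing notes, the authors' tools included HISAT2 (version 2.0.5), featureCounts (version 1.5.0-p3) and DESeq2 (version 1.20.0) with genome build hg38; the annotation release is not given in the sources used here. The deposited table holds a signal for each gene in each library, namely read counts divided by size factors. It also holds the authors' log2 fold changes, p-values and adjusted p-values, which were not used except to check that all 6828 listed genes had an adjusted p below 0.05. The columns were matched to the groups by the heading of the deposited comparison and to replicates by their number.

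The values were fitted with limma (version 3.58.1, R version 4.3.3; lmFit and eBayes with a trend) as log2(value + 1), for genes with a mean of at least 10, which tested 6812 genes and left out 16. A gene counted as called where its p, adjusted by Benjamini-Hochberg over all genes tested, was below 0.05 and its log2 fold change was 1 or more in either direction. Fold changes are on the log2(value + 1) scale. Dividing by the value of 1 read (0.966 and 1.10 in shctrl, 1.05 and 0.88 in shUSP2-AS1) gave whole reads for 100% of values, within 0.01 of a whole number, and edgeR (version 4.0.16) and DESeq2 (version 1.42.0) were run on them as alternatives; both called 9 members lower. Replicates of a group differed beyond sampling noise (chi-square per degree of freedom 3.78 and 3.85) and were kept separate. On simulated counts for this comparison, with 200 of 6686 genes changed, limma, edgeR and DESeq2 each recovered 99.5% with 0 false calls. In the data, 49.4% of genes tested were lower and 50.6% higher at an adjusted p below 0.05 (limma). Of the listed members, 40 had a log2 fold change between -1 and -0.5. How well calls near the 2-fold threshold are recovered in such data was not tested.

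Values in every library are given for each member called and for the 2 listed members of each role with the largest change; others are given where they show the range. Of the other ribosome biogenesis genes, the 4 called with the largest change were named. SNU13, DKC1, UBTF, SBDS, EFL1 and C1D were named outside this rule. The members and lists were chosen with earlier results of these data known. Promoters are RefSeq sequences (GRCh38.p14) and snoRNA and exon overlaps come from GENCODE release 44. The values of some genes chosen for context are not reported here.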

Additional observations from a re-analysis of the deposited data

How the results depend on the processing

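All 294 values of the 21 members with values in every library kept their direction and stayed at an adjusted p below 0.05 (limma, edgeR or DESeq2, as the alternative had it) under the other pseudocount, filters, scalings, count tests, blocks and left-out libraries. The number called at least 2-fold lower, 9, depended on scaling and on the threshold. RLE scaling shifts the median of all genes tested by -0.12 and gave 19 called members and a median log2 fold change of -0.91. The 19 were 35.8% of the listed members, against 16.8% of the genes tested under that scaling. Upper quartile scaling shifts the median by 0.06 and gave 8 (15.1%, against 12.2% of the genes tested). A test against a 1.5-fold change called 30 members and 34 other ribosome biogenesis genes lower. The shares of all genes tested under that test and with a library left out are not given here, so those counts cannot be read against them. A threshold of 0.5 on the log2 scale called 49 members (92.5%) and 55 other genes (71.4%) lower, against 34.3% of all genes tested. At that threshold 1 other gene, SBDS, was called higher. Without the members that overlap an exon of another gene, a check chosen after seeing the data, 24 were lower and 2 called. Such an overlap was present in 29 of the 53 listed members and in 7 of the 9 called. The part of the overlaps in these calls was not tested. With each library left out in turn, 7 to 11 members were called lower, 53 were lower at adjusted p alone, 16 to 19 other genes were called lower and the median ranged from -0.86 to -0.77; a lone library was then assumed to vary like the other group. With the replicate number as a block, 9 members were called and 53 were lower, and no call changed. Replicate differences of the groups had a correlation of -0.04 over all genes tested and -0.14 at a mean of at least 100, so the numbers were not taken to pair the libraries; the crossed pairing, added after seeing the data, also called 9. With 2 libraries per group the spread of 1 gene is poorly known, and low genes such as PPAN are least precise.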

Other observations

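Outside ribosome biogenesis, listed genes with the E-box tended to lower values than those without it. Among the members the medians were close, -0.82 with it and -0.79 without it. The 632 listed genes with CACGTG in a RefSeq promoter that belong to neither ribosome biogenesis list had a median log2 fold change of -0.35, against 0.22 for the 4475 listed genes outside both lists without it. Among the other ribosome biogenesis genes, 26 of the 91 with a promoter sequence (28.6%) held the E-box. Of the 662 listed genes with a promoter sequence that were called at least 2-fold lower, 11.5% held it, beside 12.9% of all listed genes. These shares and medians are descriptions of a table selected on this contrast, and the search was chosen with earlier results of these data known.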
